A study of Homo sapiens with 21 samples.

Results

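The 41 genes described here encode factors that copy DNA and a few that repair it: the origin-licensing factors ORC1, ORC6, CDC6, CDT1 and GMNN, the helicase subunits MCM2 to MCM7, MCM10, CDC45 and the GINS subunits, the replicative polymerases with primase, PCNA with its loader, the RPA subunits, FEN1, LIG1, both subunits of ribonucleotide reductase, CHAF1A, BRCA1, BRCA2 and FANCD2. They were chosen by gene name from a table of 58735 genes. All 41 were found, and all 41 held enough counts to be tested among 16699 genes. Messenger RNA was measured by sequencing of poly(dT)-selected RNA in a culture that carries the label HepG2, the name of a line established from a hepatocellular tumour. All groups were kept for 24 h in serum-free DMEM, and they differed in the concentration of coumarin, a plant benzopyrone: 0, 0.001, 0.01, 0.1, 1, 10 or 100 µM. Each of the 7 groups has 3 libraries, which the labels call biological replicates, and there are 21 libraries in all. The dose series asks which transcripts change with coumarin, and at which dose.

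Replication starts when the origin recognition complex, with CDC6 and CDT1, loads the MCM2 to MCM7 helicase onto DNA in G1, a step called licensing. Geminin, the product of GMNN, binds CDT1 and blocks relicensing once S phase has begun. CDC45 and GINS then turn the loaded helicase into an active one, and polymerases alpha, delta and epsilon copy the strands with PCNA as sliding clamp and RPA coating single-stranded DNA. Many of these genes are transcribed in late G1 under E2F factors, and BRCA1, BRCA2 and FANCD2 protect or repair stalled and broken forks.

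Promoters of 4 of these genes are shown, the 2 with the smallest p-values across the dose groups in each direction. CDC6 and ORC6 were higher at 100 µM than at 0 µM. CDT1 and FANCD2 were lower, but the difference of CDT1 did not pass the test described below. Each is the RefSeq window of 300 bases on GRCh38.p14, from 250 bases before to 50 after the annotated start, written 5′ to 3′ on the gene's strand. Capitals mark letters of the E2F type, searched on both strands. The searched words were TTCCCGC, then TTGGCGC, then TTCGCGC, and last TTGCCGC.
CDC6 promoter: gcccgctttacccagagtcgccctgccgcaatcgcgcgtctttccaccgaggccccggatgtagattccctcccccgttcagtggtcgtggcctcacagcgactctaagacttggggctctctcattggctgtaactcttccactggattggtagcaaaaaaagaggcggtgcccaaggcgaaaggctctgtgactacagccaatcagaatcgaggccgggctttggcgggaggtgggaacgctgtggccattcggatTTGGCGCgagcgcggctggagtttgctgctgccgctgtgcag
ORC6 promoter: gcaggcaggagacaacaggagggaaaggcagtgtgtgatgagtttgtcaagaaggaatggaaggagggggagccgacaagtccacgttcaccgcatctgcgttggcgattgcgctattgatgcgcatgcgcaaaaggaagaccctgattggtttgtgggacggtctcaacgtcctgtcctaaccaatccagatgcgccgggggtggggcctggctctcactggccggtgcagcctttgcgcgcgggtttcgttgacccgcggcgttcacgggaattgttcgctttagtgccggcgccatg
CDT1 promoter: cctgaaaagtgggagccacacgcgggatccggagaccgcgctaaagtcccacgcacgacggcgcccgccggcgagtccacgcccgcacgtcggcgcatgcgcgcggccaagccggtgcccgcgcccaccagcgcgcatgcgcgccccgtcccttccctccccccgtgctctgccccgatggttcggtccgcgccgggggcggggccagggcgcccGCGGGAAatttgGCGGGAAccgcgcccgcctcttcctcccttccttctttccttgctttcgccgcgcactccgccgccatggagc
FANCD2 promoter: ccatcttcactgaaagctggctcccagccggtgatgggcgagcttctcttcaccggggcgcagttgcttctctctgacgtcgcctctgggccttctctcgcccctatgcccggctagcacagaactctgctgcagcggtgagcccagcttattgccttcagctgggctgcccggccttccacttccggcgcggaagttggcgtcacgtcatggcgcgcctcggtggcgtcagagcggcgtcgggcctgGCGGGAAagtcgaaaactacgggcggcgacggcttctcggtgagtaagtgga
The CDC6 window is chr17:40287629-40287928 and holds 1 such match, the ORC6 window is chr16:46689409-46689708 and holds 0, the CDT1 window is chr16:88803539-88803838 and holds 2, and the FANCD2 window is chr3:10026187-10026486 and holds 1. All 4 lie on the plus strand. Of the 41 genes, 36 matched a RefSeq window by symbol, and 8 of these have more than 1 window. In at least 1 of a gene's windows, 29 of the 36 (80.6%) held a match, against 15.3% of the 27305 genes with a window. In the first window alone it was 26 of 36 (72.2%) against 13.1%, since GMNN, RRM2 and BRCA1 held a match only in another window. The 7 without one in any window were BRCA2, CDC45, FEN1, MCM10, ORC6, POLD1 and PRIM2. CCAAT, searched on both strands, was in any window of 22 of 36 genes (61.1%) and of 39.7% of all genes, while TTTGAA was in 1 of 36 (2.78%) and in 18.2% of all genes. These matches are letters in a window, not measured binding. Sites spelled otherwise than the searched words were not counted or marked.

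Gene counts summed to between 26984563 and 43375429 per library, and the common biological coefficient of variation estimated by edgeR was 4.49%. Control replicates 2 and 3 stood apart. The total behind their deposited FPKM exceeded their gene counts by 8.03% and 8.17%, against 3.91% in control replicate 1 and 1.04% to 5.43% in the treated libraries. Results against 0 µM are therefore also given with control replicate 1 alone, and 100 µM was compared with the 12 libraries at 0.001 to 1 µM, which uses no control. All comparisons with 0 µM share the same 3 control libraries. The liver markers that would go with the label were absent or near 0. Of 22 hepatocyte markers 6, ALB and TTR among them, had no read in any library, and none reached a mean of 1 CPM. KRT7 had a mean of 751 CPM and COL3A1 1212 CPM, each the highest of its list. Of 12 ductal epithelium markers 4 reached a mean of 1 CPM, and of 13 fibroblast markers 8 did. KRT19, EPCAM and CDH1 did not, nor did COL1A2, PDGFRA and THY1. In bulk RNA, fewer cells of a type and less RNA per cell cannot be told apart.

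Every one of the 41 transcripts was present in every library, with at least 217 reads and between 7.10 and 1646 CPM (counts scaled to the library's TMM-adjusted total). Compared per gene length in the control libraries, RRM1, the large subunit of ribonucleotide reductase, stood highest at 342 ± 8.61 FPKM (SD, n = 3), followed by PCNA at 239.8 ± 12.8 FPKM. MCM7 at 127 ± 1.68 FPKM and MCM3 at 124 ± 6.62 FPKM came next and did not differ beyond their spread. The lowest were POLE2 at 3.06 ± 0.38 FPKM, POLA2 at 2.42 ± 0.16 FPKM and BRCA2 at 2.20 ± 0.017 FPKM, and the median of the 41 was 25.7 FPKM. The genes were steady over dose: the highest group mean exceeded the lowest by a median of 1.12 times, from 1.02 times for BRCA1 to 1.22 times for FANCD2, while the median coefficient of variation within groups was 3.14%.

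At 100 µM, 13 of the 41 genes passed the test against 0 µM (adjusted p under 0.05), 10 higher and 3 lower, which is 31.7% of them. The background was 27.3% of all genes tested, 14.4% higher and 12.9% lower, so the share of replication genes that passed was near it. Under upper-quartile scaling 12 passed, 6 higher and 6 lower. The 41 genes had a median log2 difference of 0.05 against -0.0079 over all genes, and a median absolute difference of 0.077 against 0.151. All 41 had at least 7.10 CPM in every library, and genes of like abundance were not compared. For 37 of the 41 the 95% interval of the difference lay within 0.3 log2 units of 0 on either side. Against the 12 lower-dose libraries 16 passed (39.0%, background 33.1%), 11 higher (background 16.6%) and 5 lower (16.5%), or 11 and 8 under upper-quartile scaling. Across all 7 groups at once 17 passed (41.5%, background 30.0%), and 18 genes passed none of the 9 comparisons run. The background depends on weakly counted genes. With a filter of 1 CPM in 3 libraries, 12 of the 41 passed at 100 µM against 0 µM (background 32.7%). With that filter 19 passed against the lower doses (background 39.4%) and 16 across the 7 groups (background 36.1%).

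**Figure D1:**
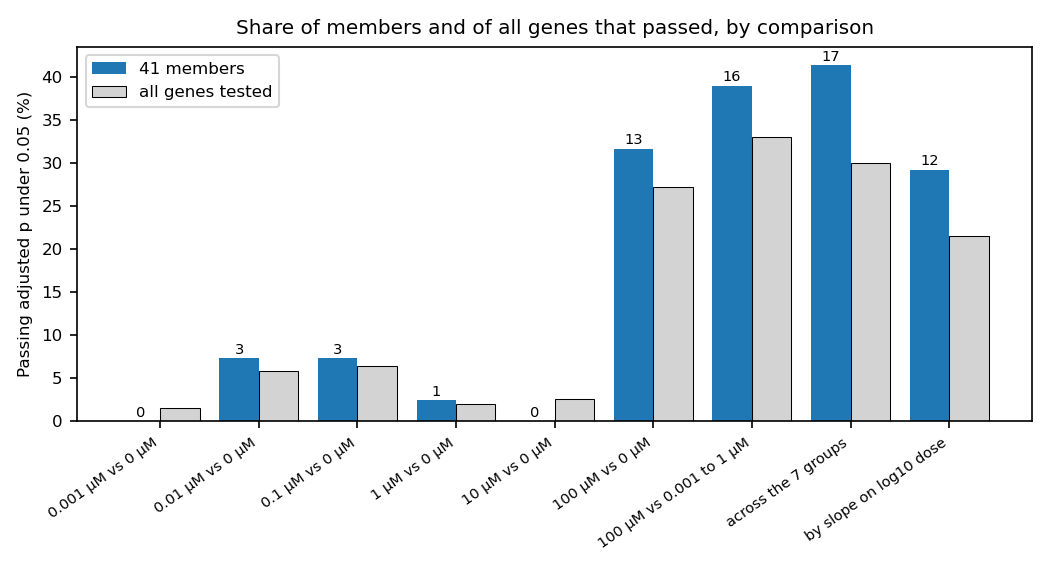
Share of the 41 replication and repair genes (blue) and of all genes tested (grey) that passed an adjusted p under 0.05, in percent, for each of the 9 comparisons. The number above each blue bar counts the genes that passed. At 100 µM against 0 µM the bars are 31.7% and 27.3%, across the 7 groups 41.5% and 30.0%, by slope 29.3% and 21.5%, and at 0.001 and 10 µM the blue bar is at 0.

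**Figure D2:**
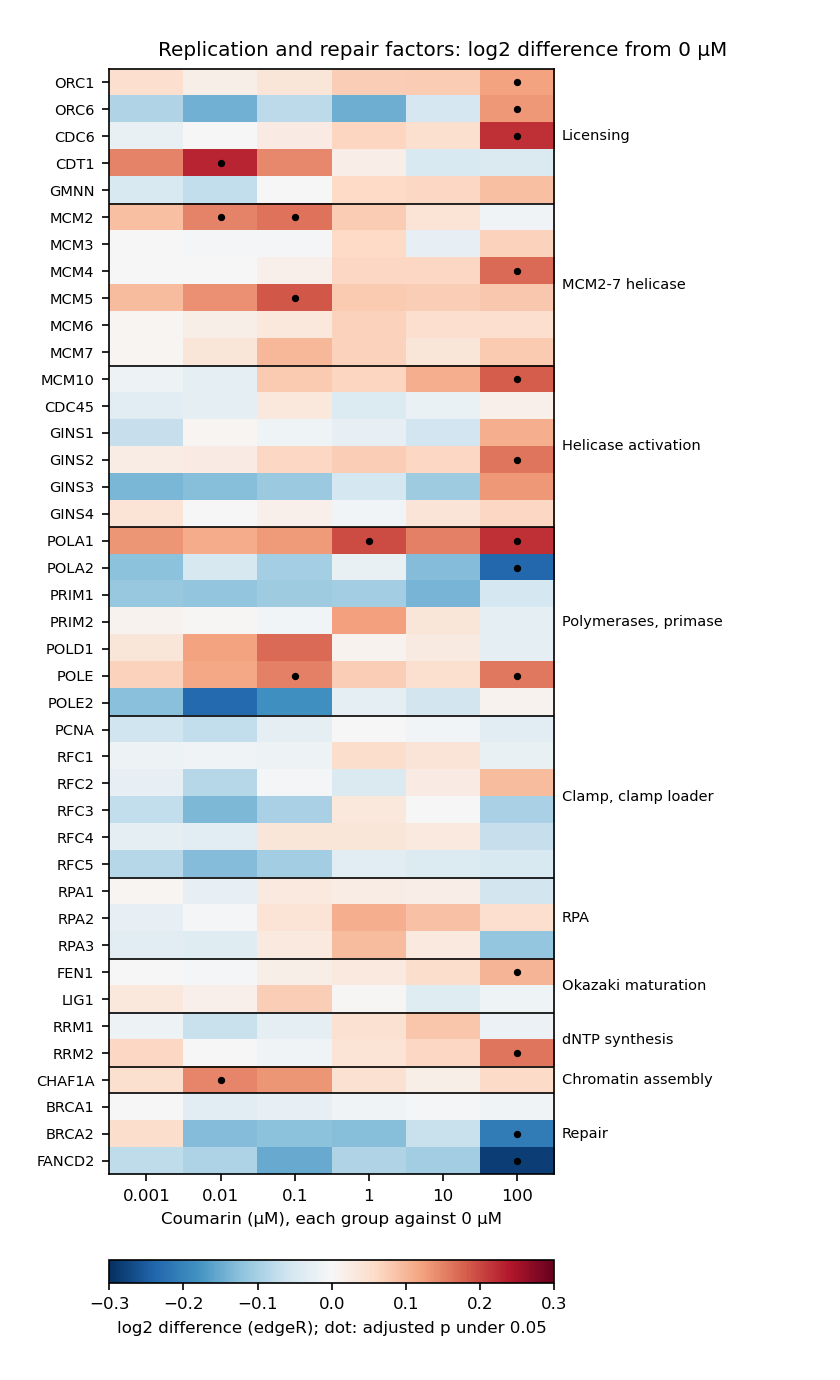
Log2 difference of each of the 41 genes from 0 µM (edgeR, colour scale from -0.3 to 0.3) at the 6 doses of coumarin, in rows ordered by role. Dots mark an adjusted p under 0.05, and 13 of them stand at 100 µM.

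Of the 5 licensing genes, CDC6, ORC6 and ORC1 rose at 100 µM against 0 µM, and CDT1 and GMNN did not pass. CDC6, the loader that brings the MCM complex to origins (chr17:40287633-40304657 on GRCh38), had 182, 172 and 174 CPM in the control libraries and 210.3, 196 and 208 CPM at 100 µM. In the 12 libraries at 0.001 to 1 µM it ran from 171 to 188 CPM with a median of 177. All 3 libraries at 100 µM stood above every library at 0 to 1 µM. CDC6 rose by 0.22 on the log2 scale (SE 0.039, 1.16-fold, adjusted p = 2.86e-05), and by 0.20 over the lower doses (adjusted p = 9.28e-07). ORC6, a subunit of the origin recognition complex (chr16:46689643-46698394), had 63.3, 62.9 and 62.6 CPM in control and 66.8, 66.9 and 72.8 CPM at 100 µM. At 0.001 to 1 µM it ran from 55.4 to 61.8 CPM with a median of 57.4, below all 3 controls as well as all 3 libraries at 100 µM. ORC6 therefore rose more against the lower doses (0.25, SE 0.036, adjusted p = 7.73e-07) than against 0 µM (0.13, SE 0.046, adjusted p = 0.030), and the difference between these contrasts was not tested. The call against 0 µM was lost without control replicate 2, control replicate 3 or 100 µM replicate 3 (adjusted p = 0.083 to 0.294), and under upper-quartile scaling. The lowest adjusted p of its 13 alternatives, 7.73e-07, was that with the lower doses as reference.

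ORC1, the largest ORC subunit, had 65.8, 63.4 and 59.9 CPM in control and 68.9, 69.4 and 67.3 CPM at 100 µM, with no overlap (0.12, SE 0.043, adjusted p = 0.0336). This call did not hold in 5 of the 6 fits that left out 1 library, all but the one without control replicate 1 (adjusted p = 0.061 to 0.219), nor against the lower doses, under upper-quartile scaling or with no filter (0.0136 to 0.591 over 13 alternatives). CDT1, which delivers the helicase with CDC6 (chr16:88803213-88809258), did not pass at 100 µM against 0 µM (-0.04, 95% interval -0.15 to 0.06). GMNN did not either (0.09, 95% interval 0.010 to 0.17, adjusted p = 0.089), though its 124, 122 and 128 CPM at 100 µM lay above its 121, 116 and 114 CPM in control.

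CDT1 and its inhibitor GMNN moved in opposite directions over the treated doses. CDT1 had 191, 200.3 and 220.0 CPM at 0.001 µM and 215, 219 and 210.3 CPM at 0.01 µM. It had 191, 190.1 and 178 CPM at 1 µM, 174, 172 and 188 CPM at 10 µM, and 181, 180.2 and 174 CPM at 100 µM. GMNN had 110.2, 112 and 111 CPM at 0.01 µM and 123, 118 and 125 CPM at 1 µM. By group mean, CDT1 was highest at 0.01 µM and lowest at 10 µM, while GMNN was lowest at 0.01 µM and highest at 100 µM. Along log10 dose in the 18 treated libraries CDT1 fell by 0.056 log2 units per 10-fold dose (SE 0.010, adjusted p = 0.000285), and GMNN rose by 0.031 (SE 0.0072, adjusted p = 0.00239). These were 2 of 12 genes of the 41 whose slope passed (29.3%, background 21.5%), 8 rising (background 10.0%) and 4 falling (11.5%), and 6 passed without 100 µM replicate 3. Without the libraries at 100 µM only CDT1 (-0.060, adjusted p = 0.0193) and GMNN (0.035, adjusted p = 0.0370) kept a slope among the 41, and over the 12 alternatives run these were the highest adjusted p of both genes, with lowest values of 1.97e-05 and 3.15e-05. The ratio of CDT1 to GMNN CPM, which is not per length and is compared only between groups, had a mean of 1.57 ± 0.044 (SD, n = 3) without coumarin, of 1.93 ± 0.037 in the 0.01 µM group and of 1.43 ± 0.063 in the 100 µM group. The untreated cells lay between these, so the ratio did not run one way from 0 to 100 µM. The longest transcript of CDT1 had 64.9% GC and that of GMNN 43.6%. Slopes of the 41 genes went with transcript GC (r = -0.43, Pearson, a description over genes that share the same libraries).

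Of the 6 subunits of the MCM helicase, MCM4 alone passed at 100 µM against 0 µM. It had 597, 578 and 587 CPM in control and 666, 660.0 and 655 CPM at 100 µM, and between 576 and 621 CPM (median 594) at 0.001 to 1 µM. The 3 libraries at 100 µM lay above all the others named here. MCM4 rose by 0.17 (SE 0.034, 1.12-fold, adjusted p = 0.000220). The other 5 subunits differed from control by between -0.01 (MCM2) and 0.081 (MCM5), and none passed. MCM2 had 225, 212 and 212 CPM in control, 236, 247 and 236 CPM at 0.01 µM, 248, 244 and 235 CPM at 0.1 µM and 216, 219 and 209.5 CPM at 100 µM. Its middle doses were high and its 100 µM libraries were back at the control level, so that MCM2 fell by 0.13 from the lower doses to 100 µM (SE 0.031, adjusted p = 0.000959). As a share of the summed CPM of MCM2 to MCM7, MCM4 went from 24.5% at 0 µM to 25.9% at 100 µM and MCM2 from 9.03% to 8.43%.

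Of the 6 helicase activation genes, MCM10 and GINS2 rose at 100 µM against 0 µM. MCM10, needed to start unwinding, had 51.3, 54.2 and 52.0 CPM in control and 60.4, 58.7 and 59.6 CPM at 100 µM, above its highest library at 0.001 to 1 µM (57.9 CPM). It rose by 0.18 (SE 0.046, 1.13-fold, adjusted p = 0.00269). GINS2 had 101.2, 93.6 and 91.4 CPM in control and 109.4, 103.5 and 107.0 CPM at 100 µM and rose by 0.16 (SE 0.043, adjusted p = 0.00376). GINS1 and GINS3, the partners of GINS2 in the same complex, did not pass against 0 µM (0.11 and 0.13, adjusted p = 0.054 and 0.13) but passed against the lower doses. GINS1 had 81.1, 80.9 and 81.3 CPM at 100 µM against 76.7, 72.5 and 76.4 CPM in control and 69.8 to 79.1 CPM (median 73.6) at 0.001 to 1 µM. GINS3 had 27.1, 26.6 and 26.5 CPM at 100 µM against 25.8, 25.3 and 22.2 CPM in control and 21.4 to 24.3 CPM (median 22.5) at 0.001 to 1 µM. For all 3 of these GINS genes the libraries at 100 µM stood above all of those at 0 to 1 µM. Over the lower doses GINS1 rose by 0.13, GINS2 by 0.12 and GINS3 by 0.24 (adjusted p = 0.00166, 0.00621 and 0.000216), GINS2 not without 100 µM replicate 1 (adjusted p = 0.071). GINS4 (0.062, adjusted p = 0.361) and CDC45 (0.016, adjusted p = 0.834) did not pass in any of the 9 comparisons.

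**Figure D3:**
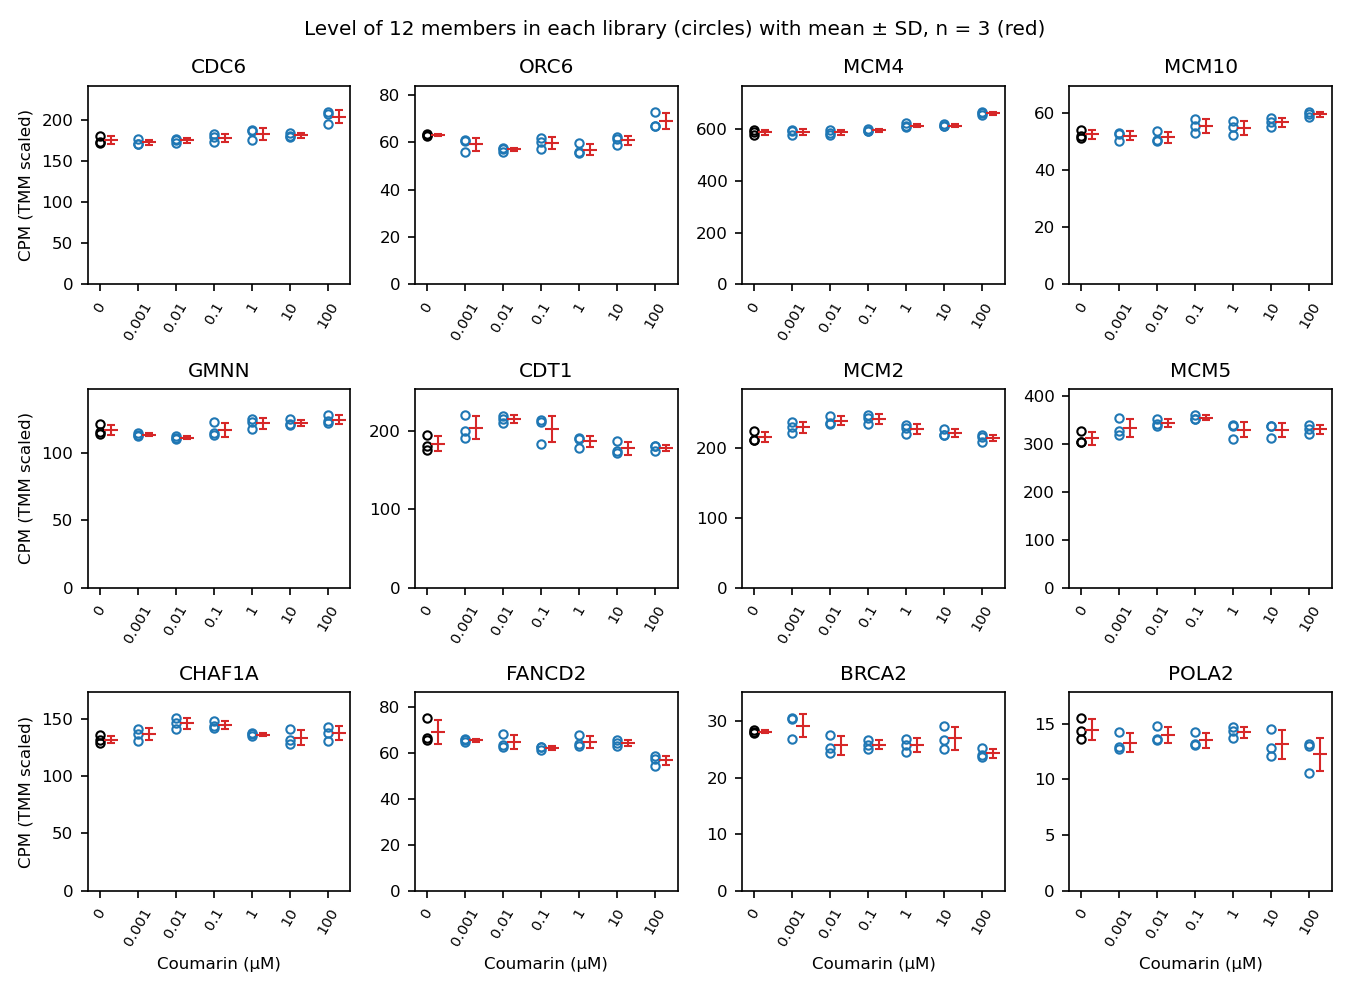
Level of 12 of the genes in each library (circles, TMM-scaled CPM, axes from 0) by coumarin dose in µM, with the group mean ± SD of n = 3 in red and control libraries in black. CDC6, MCM4 and MCM10 have all 3 libraries at 100 µM above those at 0 to 1 µM, and FANCD2 has them below.

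Of the 7 polymerase and primase genes, POLA1 and POLE rose at 100 µM and POLA2 fell. POLA1, the catalytic subunit of polymerase alpha, had 80.6, 85.5 and 82.6 CPM in control and 97.1, 96.8 and 95.7 CPM at 100 µM. It rose by 0.22 (SE 0.043, 1.16-fold, adjusted p = 0.000138), but its lower-dose libraries were already at 87.2 to 99.4 CPM (median 90.2), all above control, and it did not pass against them (adjusted p = 0.074). POLA2, its regulatory partner, fell by 0.24 (SE 0.082, 1.18-fold lower, adjusted p = 0.0285) from 15.5, 14.3 and 13.6 CPM to 13.0, 10.6 and 13.2 CPM. The 100 µM libraries of POLA2 lay below all controls, with replicate 2 lowest. The call was lost without control replicate 1 or 100 µM replicate 2 (adjusted p = 0.137 to 0.222), and against the lower doses, with no filter and in both limma fits POLA2 did not pass (0.0106 to 0.0531 over 13 alternatives). POLE, the catalytic subunit of the leading-strand polymerase, had 122, 138 and 134 CPM in control and 149, 147 and 143 CPM at 100 µM. It rose by 0.16 (SE 0.045, adjusted p = 0.00694), and the call was lost without control replicate 1, its lowest library (adjusted p = 0.081), and against the lower doses (0.248, the highest of 13 alternatives whose lowest was 0.00194). The catalytic subunit of polymerase delta POLD1, the epsilon subunit POLE2 and the primase genes PRIM1 and PRIM2 differed by -0.05 to 0.012 at 100 µM and passed in none of the 9 comparisons.

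None of PCNA and RFC1 to RFC5 passed at 100 µM against 0 µM. PCNA, the sliding clamp, had 390.0, 356 and 359 CPM in control and 362, 356 and 362 CPM at 100 µM, groups that overlap, and the 95% interval of its difference ran from -0.11 to 0.044. RFC2 rose by 0.14 over the lower doses (adjusted p = 0.00393). RFC3 passed across the 7 groups (adjusted p = 0.0308): it had 109.5, 101.4 and 103.5 CPM in control, 91.4, 97.6 and 97.2 CPM at 0.01 µM, 103, 105 and 113 CPM at 1 µM and 100.3, 98.7 and 95.3 CPM at 100 µM, with no step in 1 direction. RFC3 did not pass across the groups without 0.01 µM replicate 1, 1 µM replicate 3, 100 µM replicate 2 or 100 µM replicate 3 (adjusted p = 0.051 to 0.083). None of the RPA genes passed against 0 µM, and RPA3, the smallest subunit, fell by 0.13 from the lower doses to 100 µM (adjusted p = 0.0226), a call lost without any 1 of the 3 libraries at 100 µM (adjusted p = 0.050 to 0.077).

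FEN1, the nuclease that trims Okazaki fragments, had 209, 199.8 and 204 CPM in control and 213, 223 and 222 CPM at 100 µM and rose by 0.10 (SE 0.039, adjusted p = 0.0449). LIG1, the ligase that seals them, passed nowhere (-0.014, 95% interval -0.092 to 0.064). RRM2, the small subunit of ribonucleotide reductase, had 68.2, 63.1 and 66.3 CPM in control and 71.4, 75.3 and 74.1 CPM at 100 µM and rose by 0.16 (SE 0.056, adjusted p = 0.0274). RRM1, its large partner, had 1524, 1455 and 1490.5 CPM in control and 1482, 1485 and 1448 CPM at 100 µM and did not pass (95% interval -0.10 to 0.070). The FEN1 and RRM2 groups did not overlap, but both calls were lost without control replicate 2, control replicate 3, 100 µM replicate 2 or 100 µM replicate 3 (adjusted p = 0.063 to 0.194). Of 13 alternatives the FEN1 call was lost in 7, RLE and upper-quartile scaling and both other filters among them. The RRM2 call was lost in 5, upper-quartile scaling and both limma fits among them. The lowest adjusted p of the 13 was 0.016 for FEN1, with the lower doses as reference, and 0.00503 for RRM2. FEN1 and RRM2 also passed against the lower doses, by 0.093 and 0.14, and were lost there without 100 µM replicate 2 or 3 (adjusted p = 0.072 to 0.112).

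Of the 3 repair genes, FANCD2 and BRCA2 fell at 100 µM and BRCA1 did not pass. FANCD2, the Fanconi anaemia protein that is ubiquitinated at stalled forks (chr3:10026414-10101930), had 65.6, 66.6 and 75.1 CPM in control and 57.4, 54.4 and 58.5 CPM at 100 µM. At 0.001 to 1 µM it ran from 61.3 to 68.3 CPM with a median of 63.6, so the 100 µM libraries were the lowest of all named here. FANCD2 fell by 0.28 (SE 0.048, 1.22-fold lower, adjusted p = 1.82e-05) against 0 µM and by 0.18 (adjusted p = 0.000291) against the lower doses. BRCA2, which acts in recombination at broken DNA and stalled forks, had 28.1, 28.0 and 28.3 CPM in control and 24.0, 23.7 and 25.2 CPM at 100 µM and fell by 0.21 (SE 0.062, 1.16-fold lower, adjusted p = 0.0102). Its lower-dose libraries spanned 24.3 to 30.5 CPM and overlapped both groups. Against them BRCA2 fell by 0.13 (adjusted p = 0.0456), a call that 9 of 15 fits without 1 library lost (adjusted p = 0.051 to 0.192). BRCA1 had 85.8, 92.6 and 87.1 CPM in control and 86.5, 87.6 and 89.4 CPM at 100 µM, with overlapping groups, and passed in none of the comparisons.

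With control replicate 1 as the only control, and the spread taken from the treated groups, 8 of the 41 passed at 100 µM (background 12.6%), 5 higher and 3 lower. CDC6, MCM4, MCM10, POLA1, POLE, POLA2 and FANCD2 kept their calls, and RPA3 was added (lower). GINS2, ORC1, ORC6, FEN1, RRM2 and BRCA2 lost theirs, which 1 control library cannot tell from a loss of power. The estimates of some were also smaller than with all 3 controls: GINS2 0.076 against 0.16, ORC1 0.059 against 0.12, FEN1 0.073 against 0.10 and RRM2 0.11 against 0.16. Those of ORC6 (0.12 against 0.13) and BRCA2 (-0.21 in both) hardly changed. Among the calls kept, estimates were smaller for CDC6 (0.17 against 0.22), MCM4 (0.15 against 0.17) and FANCD2 (-0.21 against -0.28). They were larger for POLE (0.27 against 0.16), POLA2 (-0.33 against -0.24), POLA1 (0.26 against 0.22) and MCM10 (0.21 against 0.18). That of RPA3 was larger too (-0.27 against -0.12). POLE and POLA2 lost their calls without control replicate 1. The median log2 difference of the 41 genes was -0.0044 with this control alone, against 0.05 with all 3. MCM4, MCM10, CDC6 and FANCD2 kept the call at 100 µM in all 13 alternatives and in all 6 fits that left out 1 library. All 3 libraries at 100 µM lay above all 3 controls for 14 of the 41 genes (34.1%, background 20.9%) and below them for 6 (14.6%, background 19.9%). Against the 12 lower-dose libraries this was 8 above (19.5%, background 10.4%) and 3 below (7.32%, background 10.9%).

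At the lower doses few genes passed against 0 µM, all of them higher. At 0.01 µM 3 of 41 passed (background 5.86%, 4.77% higher and 1.09% lower): CDT1 rose by 0.23 (SE 0.051, 1.17-fold, adjusted p = 0.00504), MCM2 by 0.15 (adjusted p = 0.0147) and the chromatin assembly factor CHAF1A by 0.15 (adjusted p = 0.0290), from 135, 129 and 131 CPM to 141, 146 and 150.2 CPM. At 0.1 µM 3 passed (background 6.45%, 5.02% higher and 1.43% lower): MCM5 rose by 0.19 (SE 0.043, adjusted p = 0.00574), from 327, 305 and 303 CPM to 352, 359.8 and 352 CPM, MCM2 by 0.16 (adjusted p = 0.00702) and POLE by 0.15 (adjusted p = 0.0350). At 1 µM POLA1 passed (background 2.01%, 1.57% higher and 0.431% lower), rising by 0.20 (adjusted p = 0.00986) to 89.5, 99.4 and 95.8 CPM. In each of these calls the treated libraries lay above all 3 controls, which choosing them by this test makes likely. That separation adds no support to them. At 0.001 µM none passed in edgeR (background 1.53%, 1.34% higher and 0.192% lower), where 6 genes had an unadjusted p under 0.05 and DESeq2 called 0. At 10 µM none passed in edgeR (background 2.62%, 1.74% higher and 0.874% lower), where 4 genes had an unadjusted p under 0.05 and DESeq2 called 1. Under upper-quartile scaling 2 genes passed higher and 3 lower at 0.01 µM, and 2 higher and 1 lower at 0.1 µM.

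The low-dose calls changed with the control libraries used, and some with removal of a trend with base composition. The cause of these calls was not tested. With control replicate 1 alone, none of the calls of CDT1, MCM2 and CHAF1A at 0.01 µM, of MCM2 and MCM5 at 0.1 µM or of POLA1 at 1 µM was kept (adjusted p = 0.118 to 0.472), and POLE at 0.1 µM was. CDT1 kept its call in all 6 fits that left out 1 library. The others were lost in 1 (MCM5, without control replicate 3), 2 (MCM2 at 0.1 µM, without control replicate 3 or 0.1 µM replicate 1; POLA1, without control replicate 3 or 1 µM replicate 2), 3 (MCM2 at 0.01 µM, without control replicate 2 or 3 or 0.01 µM replicate 2), 4 (CHAF1A, without control or 0.01 µM replicates 2 or 3) or 5 (POLE, all but control replicate 2) of those fits (adjusted p = 0.056 to 0.197). The count of 3 at 0.01 µM became 5 without control replicate 1 and 1 without control replicate 2, control replicate 3 or 0.01 µM replicate 2. The count of 3 at 0.1 µM became 6 without control replicate 1, 1 without 0.1 µM replicate 1 and 0 without control replicate 3. The genes higher at 0.01 and 0.1 µM were GC-rich: the longest transcript of CDT1 had 64.9% GC, MCM2 58.1%, CHAF1A 57.6%, MCM5 57.0% and POLE 55.6%, against a median of 45.9% over the 41 genes and 48.4% over all genes tested. POLD1 (65.0%), MCM7 (57.6%) and LIG1 (56.4%) were as GC-rich and passed in none of the 9 comparisons. POLA1, which passed at 1 µM, had 42.9%. Across the 41 genes the difference from control followed GC with r = 0.69 at 0.01 µM and 0.68 at 0.1 µM, and with r = 0.10 at 100 µM (Pearson, a description over genes that share the same libraries). After each library's trend with GC was removed these were 0.44, 0.44 and 0.087. For the slopes on log10 dose, r went from -0.43 to -0.22. The slope of CDT1 was then -0.042 and that of GMNN 0.027, and both still passed (adjusted p = 7.79e-05 and 0.0021). CHAF1A at 0.01 µM and POLE at 0.1 µM then lost their calls, as they did under upper-quartile scaling (POLE also in both limma fits; 0.0138 to 0.444 and 0.0187 to 0.133 over 12 alternatives), whereas CDT1, MCM2, MCM5 and POLA1 kept theirs, and at 100 µM FEN1 lost its call.

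**Figure D4:**
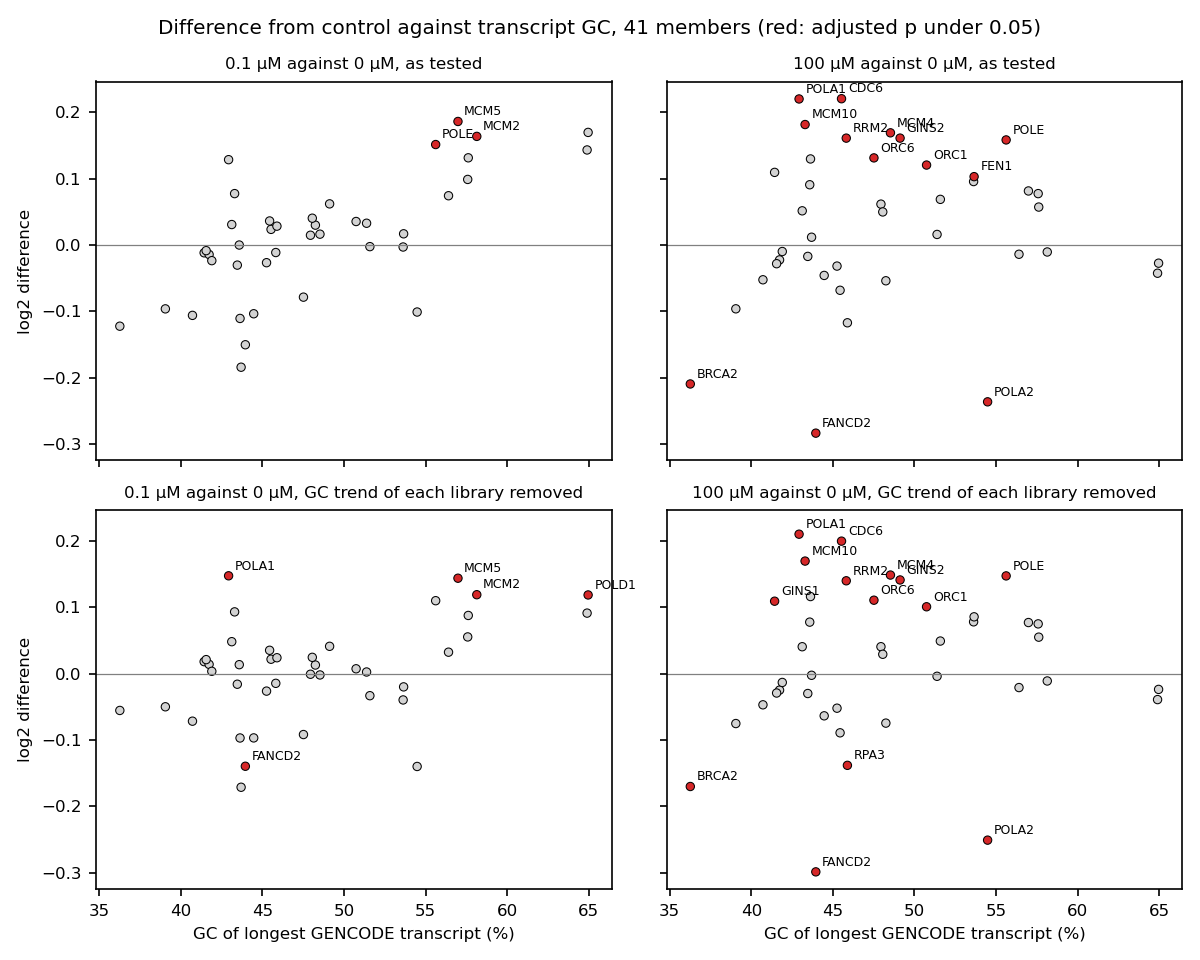
Log2 difference from 0 µM against the GC content of the longest GENCODE transcript (percent) for the 41 genes, at 0.1 µM (left) and 100 µM (right), as tested (top) and after removal of each library's GC trend (bottom), with genes that passed in red. At 0.1 µM the points climb with GC (r = 0.68, and 0.44 after removal), and at 100 µM they do not (r = 0.10).

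Neighbouring gene lists gave the setting, chosen with earlier results of these data known. Of 41 other replication genes 12 passed at 100 µM against 0 µM (29.3%, background 27.3%), 8 higher and 4 lower (median 0.045). They include the maintenance DNA methyltransferase DNMT1 (0.27, adjusted p = 1.46e-05), the polymerase epsilon subunit POLE4 (0.35, adjusted p = 5.43e-05) and the CHAF1A partner CHAF1B (0.24, adjusted p = 0.000430), which rose, and the fork protection factor DONSON, which fell by 0.26 (adjusted p = 7.42e-05). Among nucleotide supply genes, DCTD, a deoxycytidylate deaminase, rose by 0.20 (adjusted p = 0.0105). Of 61 other repair genes 13 passed against 0 µM (21.3%, background 27.3%), 11 higher and 2 lower (median 0.046). The exonuclease EXO1 rose by 0.38 (1.30-fold, adjusted p = 1.02e-09), the uracil glycosylase UNG by 0.22 (adjusted p = 4.44e-05), the abasic endonuclease APEX1 by 0.19 (adjusted p = 0.000895) and UBE2T, the ubiquitin-conjugating enzyme that acts on FANCD2, by 0.21 (adjusted p = 0.000988).

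Of 23 regulators of G1 and S phase entry 9 passed at 100 µM against 0 µM (39.1%, background 27.3%), 7 higher and 2 lower (median 0.076). The G1 cyclin CCNE1 rose by 0.94 (1.91-fold, adjusted p = 2.11e-05), the CDK inhibitor CDKN1A by 0.59 (1.5-fold, adjusted p = 8.49e-13) and the phosphatase CDC25A by 0.37 (adjusted p = 2.03e-08), while the pocket protein RBL2 fell by 0.25 (adjusted p = 0.000187). These differences were larger than any among the 41 replication and repair genes, except that of RBL2. CCNE1 had a mean of 2.55 CPM, below the lowest library value of the 41 genes (7.10 CPM). Of 26 mitotic genes 7 passed (26.9%, background 27.3%), 4 higher and 3 lower (median 0.0095), where MKI67 rose by 0.18 (adjusted p = 0.00574), BUB1B by 0.16 (adjusted p = 0.0112), while CENPF fell by 0.27 (adjusted p = 4.62e-05) and CENPE fell by 0.27 (adjusted p = 0.0133). Against the lower doses 12 mitotic genes passed (46.2%, background 33.1%), 2 higher (background 16.6%) and 10 lower (16.5%), and MKI67 fell by 0.12 (adjusted p = 0.0183). Summed CPM of the mitotic list were 2998 to 3071 in control, 3131 to 3281 at 0.001 to 1 µM and 2945 to 2984 at 100 µM, and those of the 41 genes were 7202 to 7546 in control and 7499 to 7636 at 100 µM. The summed CPM of 13 fibroblast markers were 1629 to 1721 in control and 1413 to 1461 at 100 µM, those of 12 ductal epithelium markers 1018 to 1089.6 and 1023 to 1033, and 22 hepatocyte markers summed to at most 0.556 CPM in any library. COL3A1 (mean 1212 CPM) and KRT7 (mean 751 CPM) were the largest parts of the fibroblast and ductal sums. The part of these lists in the results for the 41 genes was not tested.

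Reads shared with other genes bear on some of the levels. Pseudogene copies matched by name held at most 0.22% of the CPM of their parent gene. Genes that overlap the annotated span of MCM2, GINS2, RFC4, RFC5, POLA1, PRIM1, RPA1, RPA3, FEN1, CHAF1A or BRCA1 had CPM of at least 10% of that gene's own, and for POLA1 this is the processed pseudogene EEF1B2P3, which shares 678 bases with its span and had 20.7% of its CPM. The shared span was short for GINS2 (7 bases), CHAF1A (20), RFC4 (21) and PRIM1 (33, with NACA). It was long and on the same strand for FEN1 with FADS2 (4265 bases, 24.6% of the CPM of FEN1). The same held for BRCA1 with AC060780.1 (21878 bases, 35.8% of the CPM of BRCA1). The strand setting of the counting is not given in the sources used here, so reads within the shared spans cannot be told apart.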

How the data were processed

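Libraries of poly(dT)-selected RNA from cells labelled HepG2 were grouped by the coumarin dose in the labels. Raw counts per gene were deposited by the authors as whole numbers, and a second table deposited by the authors holds FPKM, scaled by gene length and 1 total per library. HISAT2, DESeq2 and GRCh38 are named per the submitters' processing notes; no counter or strand setting is given in the sources used here. The 41 genes and all lists were chosen with earlier results of these data known.

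Counts were tested in R 4.3.3 with edgeR 4.0.16: filterByExpr, TMM scaling and the quasi-likelihood F test (robust, two-sided, with 14 residual degrees of freedom from the 21 libraries fitted together), adjusted by Benjamini-Hochberg over 16699 genes with a threshold of 0.05. The slope on log10 dose used the 18 treated libraries and 16522 genes. "Rose", "fell" and "passed" refer to this test. CPM are TMM-scaled, and a log2 difference is that of the fit, with its SE and 95% interval. Totals of 26984563 to 43375429 counts set the precision. Replicate pairs differed by 2.31 to 8.67 times the sampling noise (chi-square over degrees of freedom, 21 pairs), so none was counted as a duplicate. The labels do not say what separated the biological replicates, so p-values measure the spread between these libraries. Scripts were tested on simulated data.

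Values by library are given for genes that passed at 100 µM or, by smallest p, across the 7 groups, 20 genes in all, and for CHAF1A, RRM1, PCNA and BRCA1, which were added after their values were seen. Of each other list, up to 4 genes with the smallest p at 100 µM are named, and 1 result for the nucleotide supply genes is not reported here. Promoter windows come from RefSeq (GRCh38.p14), and transcript GC from GENCODE 29. Alternatives were scaling by RLE or upper quartile, filtering at 1 CPM in 3 libraries or not at all, a replicate block, an adjusted p under 0.01, only the 2 groups compared, control replicate 1 alone, the 12 lower-dose libraries as reference, limma 3.58.1 on log2(FPKM + 1) or log2(FPKM + 0.1), DESeq2 1.42.0 and each library left out. Removal of each library's GC trend was chosen after seeing the data.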

Additional observations from a re-analysis of the deposited data

How the results depend on the processing

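None of the 48 differences and slopes of single genes that passed changed direction under any alternative or left-out library. Of the 28 genes that did not pass at 100 µM against 0 µM, 16 changed sign in at least 1 of them, CDC45, MCM2 and PCNA among them. Counts of genes that passed, of 41, moved by over 1.5 times as follows, and the cause was not tested. An adjusted p under 0.01 left 1 of 3 at 0.01 µM, 7 of 13 at 100 µM, 10 of 17 across the 7 groups and 5 of 12 slopes, by construction. Control replicate 1 alone gave 1 at 0.01 µM, 1 at 0.1 µM, 0 at 1 µM and 8 at 100 µM. DESeq2 gave 6 at 0.01 µM, 6 at 0.1 µM, 2 at 1 µM and 1 at 10 µM, and a fit of only the 2 groups gave 6 at 0.01 µM and 6 at 0.1 µM. Upper-quartile scaling gave 5 at 0.01 µM, and no filter gave 5 at 0.1 µM and 1 at 10 µM. The 12 lower-dose libraries as reference gave 1 at 10 µM. Limma on FPKM gave 11 across the 7 groups with either pseudocount, and the slope without the 100 µM libraries gave 2. Removal of the GC trend gave 2 at 0.001 µM, 5 at 0.1 µM, 2 at 1 µM and 1 at 10 µM.

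Leaving out 1 library at a time gave 0 to 0 at 0.001 µM, 1 to 5 at 0.01 µM, 0 to 6 at 0.1 µM, 0 to 1 at 1 µM (0 without control replicate 3 or 1 µM replicate 2), 0 to 0 at 10 µM, 9 to 14 at 100 µM, 12 to 17 against the lower doses, 12 to 20 across the 7 groups and 6 to 15 for the slope. Replicate numbers did not pair the libraries: correlations of same-numbered libraries ran from -0.14 to 0.13 (median 0.000195, 63 pairs, 1 over 0.1). With the replicate number as a block, 13 genes passed at 100 µM, as without it, 1 at 10 µM, 15 across the 7 groups and 11 slopes.

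Depth did not keep any of the 41 genes out of the tests, since the lowest count was 217 reads, of POLE2. The 3 libraries a group limit the smallest difference that could pass. Among the genes that passed at 100 µM against 0 µM, POLA2 and BRCA2 were lowest by FPKM and had the widest standard errors (0.082 and 0.062).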
